A study of Mus musculus with 12 samples.

Results

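The 10 genes described here take part in zinc handling and were measured in alveolar macrophages of ozone-exposed mice. They are the metallothioneins Mt1 and Mt2, the zinc-sensing transcription factor Mtf1, the zinc exporters Slc30a1, Slc30a4 and Slc30a5, and the zinc importers Slc39a1, Slc39a2, Slc39a10 and Slc39a14. They were taken by gene symbol, and all 10 were found among the 55291 genes of the expression table. Alveolar macrophages, the resident phagocytes of the air spaces, were flow-sorted from lungs of female C57BL/6NJ mice aged 8 to 11 weeks. A group of 6 mice breathed 0.8 ppm ozone and another group of 6 breathed filtered air, in both cases for 4 hours a day on 4 consecutive days. All cells were collected 3 days after the last exposure, so a single dose and a single time after it were sampled. Each library is the polyA RNA of 1 mouse. The mice were sorted in 2 batches, each with 3 mice of either group. The study asked how the macrophage transcriptome differs after repeated ozone, an oxidant gas.

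Cells keep free zinc very low. Metallothioneins are small cysteine-rich proteins of the cytosol that bind zinc and copper and release zinc when their cysteines are oxidised. MTF1 senses free zinc and binds short metal response elements (MREs) in promoters. Mt1, Mt2 and Slc30a1 are its classical induced targets and Slc39a10 is known as a repressed target. Proteins of the ZnT family (genes named Slc30a) move zinc out of the cytosol, and proteins of the ZIP family (genes named Slc39a) move it in. Metallothionein genes are also induced by glucocorticoids, by oxidants and in the acute-phase response.

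The promoters of the metallothioneins and of Slc30a1 are shown because these genes carry the letters that MTF1 is known to bind and gave the ozone differences largest in size among the 10. Each window, from RefSeq on GRCm38.p6 (the release behind the mm10 build of the submitters' notes), spans 250 bases before to 50 bases after the start site that the table uses, counted as +1. Capitals mark every match of the 7-base MRE core TGCACNC or TGCGCNC on either strand. The windows are chr8:94178839-94179138 for Mt1, chr8:94172368-94172667 for Mt2 and chr1:191906531-191906830 for Slc30a1, all on the plus strand and written 5′ to 3′.
Mt1: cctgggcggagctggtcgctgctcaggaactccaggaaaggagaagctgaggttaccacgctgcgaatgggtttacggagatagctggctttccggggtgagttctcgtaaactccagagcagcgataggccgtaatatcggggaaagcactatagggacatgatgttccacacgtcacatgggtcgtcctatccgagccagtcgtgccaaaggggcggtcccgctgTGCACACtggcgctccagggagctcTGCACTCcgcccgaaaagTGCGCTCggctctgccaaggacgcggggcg
Mt2: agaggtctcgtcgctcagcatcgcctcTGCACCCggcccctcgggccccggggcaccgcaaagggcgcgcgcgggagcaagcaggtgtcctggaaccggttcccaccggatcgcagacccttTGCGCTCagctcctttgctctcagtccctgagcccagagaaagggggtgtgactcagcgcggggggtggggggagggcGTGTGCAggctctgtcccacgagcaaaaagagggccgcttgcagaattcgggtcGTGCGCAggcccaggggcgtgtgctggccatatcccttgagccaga
Slc30a1: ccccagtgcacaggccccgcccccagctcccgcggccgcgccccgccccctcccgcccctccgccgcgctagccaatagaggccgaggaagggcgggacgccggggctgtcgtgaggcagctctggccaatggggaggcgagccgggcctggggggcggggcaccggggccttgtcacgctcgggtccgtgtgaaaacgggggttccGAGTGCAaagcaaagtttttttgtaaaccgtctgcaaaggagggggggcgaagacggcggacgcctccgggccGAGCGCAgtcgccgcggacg

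The Mt1 window held 3 MRE cores, beginning at -23, 3 and 21. The Mt2 window held 4, beginning at -223, -128, -50 and 5, the last pair on the minus strand. The Slc30a1 window held 2, both on the minus strand, beginning at -43 and 31. The RefSeq spans of Mt1 and Slc30a1, from 94178883 and 191906697, begin before the start sites used here. Positions are relative to those sites, and sequence outside the windows was not searched. Of 32851 windows of the same length from 27025 genes, 25.7% held at least 1 core, 1.31% held at least 3 and 0.295% held at least 4. Of the 10 genes, 9 had an entry, with 10 windows in all. Slc39a14 had none, so its promoter was not examined. Slc30a4, an exporter into vesicles, held 3 cores and Slc30a5, an exporter into the secretory pathway, held 1. The windows of Mtf1, Slc39a1, Slc39a2 and Slc39a10 held none of these letters. The antioxidant response element core TGACNNNGC, bound by NRF2, was found in the windows of Mt2, Slc30a1, Slc30a5 and Slc39a1, and in 12.4% of all windows. These matches are letters only, and no binding was measured.

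In GRCm38.p6, Mt2 spans chromosome 8 from 94172618 to 94173567 and Mt1 spans 94178883 to 94180327, so the 2 genes lie 5315 bases apart. Slc30a1 spans chromosome 1 from 191906697 to 191913248. The libraries were read in 50-base reads, so shared stretches of that length were counted in the annotated transcripts. Mt1 and Mt2 shared none with each other or with any other gene, and neither did Mtf1, Slc30a1 or Slc30a4. For Slc39a1, 21.8% of its stretches are shared with the pseudogene Slc39a1-ps, so its values are uncertain. For Slc39a2 the share was 2.96%, with Mettl17, and for Slc30a5 it was 1.29%, for Slc39a10 0.447% and for Slc39a14 0.187%.

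The deposited values are on a log2 scale, after a variance-stabilising transformation and batch correction. Each gene is centred on its filtered-air mean, which is therefore 0, and every value below is a deviation from it. The levels of 2 genes cannot be compared, the sequencing depth of each library is unknown, and differences of genes with few reads are compressed towards 0. For many genes, 2 or more mice of a batch tie at that gene's lowest value in the batch, here called the shared minimum. The 19633 genes with values above it in 6 or more of the 12 mice were kept. Where a batch has no tie, its mice count as above it however few the reads. The filter therefore does not measure abundance. All 10 zinc genes were above it in all 12 mice, which means that they had no such tie. The same held for the 12 alveolar macrophage markers, among them Siglecf, Marco and Fabp4. Of these 12 markers, Chil3 and Car4 were higher and Ear1 and Krt79 lower after ozone at an adjusted p under 0.05, where 4.25% of all genes were called (genes named after their values were seen). Their mean per mouse ranged from -0.075 to 0.098 in filtered air and from -0.054 to 0.17 after ozone. Of 70 markers of other cells in 10 lists, 66 were kept as well. None of the 66 was higher and 2 were lower after ozone (Epcam and Tppp3, also named after their values were seen). Differences were below 0 for all 6 B cell markers (median -0.22), all 6 endothelial markers (-0.10), 6 of 7 dendritic cell markers (-0.079), 6 of 8 T and NK cell markers (-0.042), 6 of 8 alveolar type 2 markers (-0.017) and 3 of 5 neutrophil markers (-0.015). They were above 0 for 6 of 8 monocyte and interstitial macrophage markers (0.12), 4 of 5 erythroid and platelet markers (0.089), 5 of 7 club and ciliated cell markers (0.078) and 3 of 6 fibroblast and muscle markers (0.029). The B cell list averaged -0.21 to 0.31 per filtered-air mouse and -0.47 to -0.015 per ozone mouse, and the endothelial list -0.29 to 0.35 and -0.33 to 0.25. Their part in the zinc gene values was not tested.

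At 3 days after the last exposure, 1 of the 10 genes passed the test, the exporter gene Slc30a1, which was lower after ozone. None of the 10 was called higher. The test was limma's, with exposure and sort batch as terms and Benjamini-Hochberg adjustment over 19633 genes, and a call is an adjusted p under 0.05. It called 4.25% of all genes (834), 2.41% higher and 1.84% lower, so 1 call among 10 genes is no result about the list as a whole. The difference was above 0 for 6 genes and below 0 for 4. Its median was 0.030 on the log2 scale, against -0.0033 over all genes. The plot of all members by mouse shows each value.

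**Figure D1:**
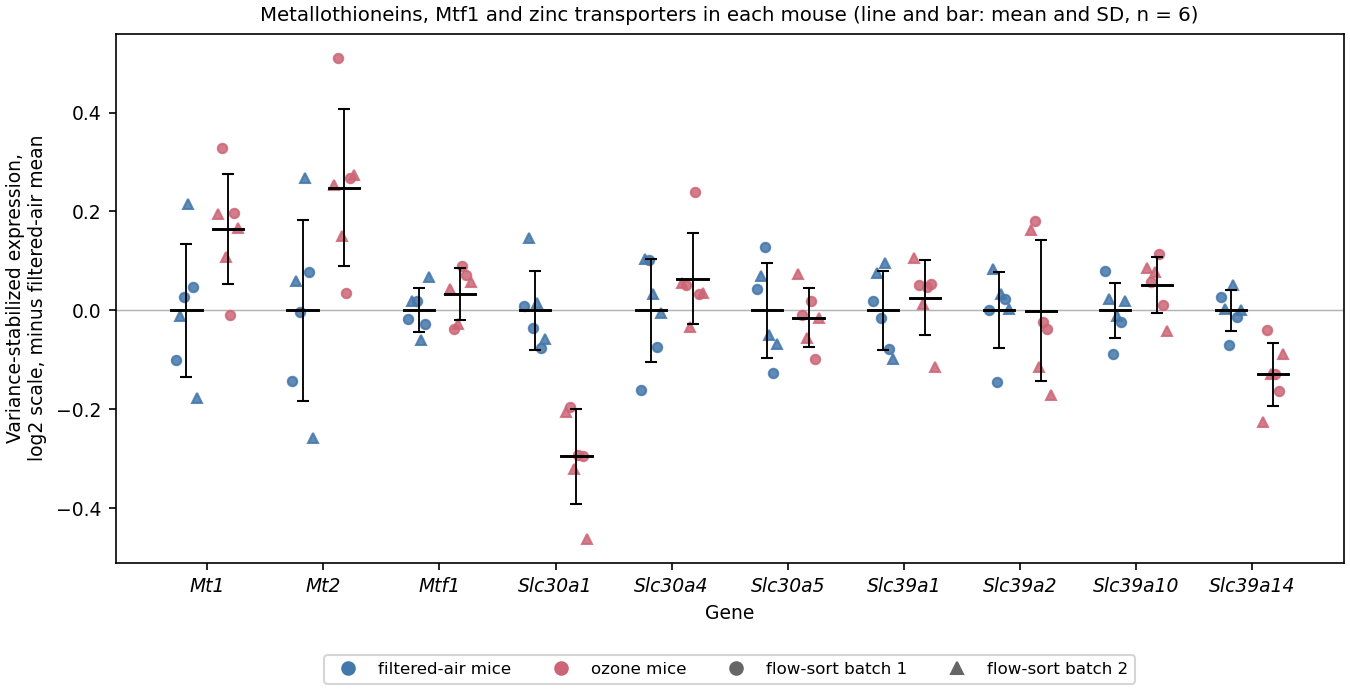
Deviation from the filtered-air mean (vertical axis, log2 scale) of the 10 genes in each of 6 filtered-air and 6 ozone mice, with symbols for the sort batch, a line at each group's mean and a bar of its SD. The ozone values of Slc30a1 lie between -0.46 and -0.19, all below the filtered-air values, and those of the other 9 genes overlap with filtered air.

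Slc30a1 encodes ZnT1, the exporter of the plasma membrane that passes zinc out of the cell. In filtered-air mice it ranged from -0.076 to 0.15, with a median of -0.013. In ozone mice it ranged from -0.46 to -0.19, with a median of -0.29. Every ozone mouse was below every filtered-air mouse, a separation found in 3.53% of all genes. Slc30a1 fell by 0.29 on the log2 scale (SE 0.051, 95% interval -0.40 to -0.18, n = 6 and 6, limma adjusted p = 0.0054). Its p ranked 177 of the 19633 genes, and 98.0% of genes had a smaller difference in size. The mice were lowest at ozone mouse 6 (-0.46) and least low at ozone mouse 2 (-0.19). The call was made without each of the 12 mice in turn, with differences from -0.32 to -0.26 and adjusted p from 0.0063 to 0.017. It was lost after quantile normalization of the 12 columns (fall of 0.26, adjusted p = 0.053). The columns hold deviations and not levels, so this step equalises the spread of deviations among mice. Within batches the Slc30a1 difference was -0.23 in batch 1 and -0.36 in batch 2, and with 3 mice against 3 neither passed (adjusted p = 0.13 and 0.20). In sorted cells as a bulk sample, fewer cells with a transcript and less transcript per cell cannot be told apart.

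The metallothioneins had differences above 0, and neither passed the test. Mt1 ranged from -0.18 to 0.21 in filtered-air mice, with a median of 0.0079, and from -0.0086 to 0.33 in ozone mice, with a median of 0.18. Only ozone mouse 2 lay above every filtered-air mouse, and 5 of the 6 ozone mice lay above the filtered-air mean. The difference in Mt1 was 0.16 (SE 0.066, 95% interval 0.023 to 0.31, n = 6 and 6, limma adjusted p = 0.21).

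Mt2 ranged from -0.26 to 0.27 in filtered air, with a median of 0.028, and from 0.035 to 0.51 after ozone, with a median of 0.26. All 6 ozone mice lay above the filtered-air mean, and 3 lay above every filtered-air mouse. The difference in Mt2 was 0.25 (SE 0.087, 95% interval 0.061 to 0.44, n = 6 and 6, limma adjusted p = 0.14). Both genes vary widely among mice of a group. With exposure and batch accounted for, the residual SD of Mt2 was 0.18, larger than in 94.8% of genes, and that of Mt1 was 0.13, larger than in 85.4%. For Slc30a1 it was 0.093, larger than in 63.8% of genes.

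Filtered-air mouse 4 had the highest Mt1 (0.21) and Mt2 (0.27) of its group. Without it, Mt2 passed (difference 0.31, adjusted p = 0.0497) and Mt1 did not (0.21, adjusted p = 0.068). Without the other mice in turn, neither gene passed. Filtered-air mouse 4 also had the lowest RNA integrity number of all mice, 8.9 where the others had 9.2 to 9.7. Across the 10 marker lists of other cells, its mean exceeded the group's median in 10 and was the group's highest in 7. Its mean over the 12 alveolar macrophage markers was the lowest of its group (-0.075). The neutrophil list averaged 0.24 in it, where filtered-air mice ranged from -0.15 to 0.24 and ozone mice from -0.063 to 0.054. Of the 8 neutrophil genes, S100a8, S100a9, Csf3r, Retnlg and Mmp8 were above the shared minimum in all 12 mice, and Ly6g, Camp and Ngp were not kept. The list of monocyte and interstitial macrophage markers averaged 0.28 in it, with ranges of -0.17 to 0.28 in filtered air and -0.038 to 0.28 after ozone. Ozone mouse 4 also lay above its group's median in 10 of 10 lists, and it had the lowest Mt1 (-0.0086) and Mt2 (0.035) of the ozone mice. Ozone mouse 2, with the highest Mt1 (0.33) and Mt2 (0.51), lay above its group's median in 1 of 10. Ozone mouse 6 lay above it in 9 of 10 and had the next highest Mt2 of its group (0.27), and filtered-air mouse 5 lay above its group's median in 9 of 10 and had the next highest Mt1 (0.048) and Mt2 (0.077) of its group. With the RNA integrity number as a covariate, the difference was 0.18 for Mt1 (adjusted p = 0.14) and 0.27 for Mt2 (adjusted p = 0.12), and neither passed. The part of other cells in the metallothionein values was not tested.

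Mt1 and Mt2 moved together from mouse to mouse. After each value was taken as its deviation from the mean of its group and batch, Pearson's r was 0.98 over 12 mice (permutation within group and batch, p = 0.0023, adjusted p = 0.014 over 6 gene pairs) and Spearman's rho was 0.90 (permutation p = 0.0069, adjusted p = 0.042). Without filtered-air mouse 6 and ozone mouse 4, the 2 mice farthest from the median of Mt1, r was 0.96. In the 6 filtered-air mice alone r was 0.98 and in the 6 ozone mice it was 0.98.

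On the deposited scale the ozone difference of Mt1 was smaller than that of Mt2 by 0.084 (exact permutation within batch, two-sided p = 0.035, where the smallest possible is 0.005). The transformation compresses genes with fewer reads, so a gap of this kind can depend on abundance, which the table does not hold. The gap no longer had a p under 0.05 without 8 of the 12 mice in turn (filtered-air mice 1, 3, 5 and 6 and ozone mice 1, 2, 5 and 6), with exact permutation p up to 0.095. After quantile normalization it was 0.072 in size (exact permutation p = 0.095).

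**Figure D2:**
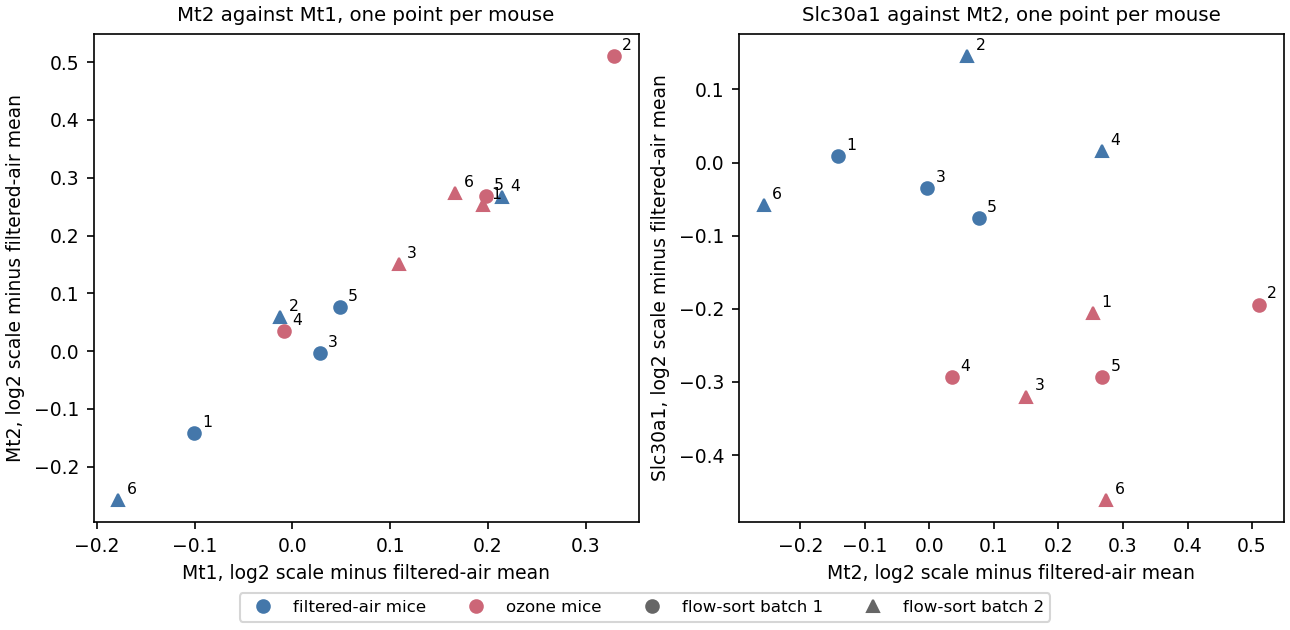
Values of Mt2 against Mt1 (left) and of Slc30a1 against Mt2 (right) in the 12 mice (log2 scale, deviation from the filtered-air mean), with colours for exposure, symbols for sort batch and numbers for the mouse within its group. Mt1 and Mt2 lie along a line within both groups, and along the Slc30a1 axis the ozone mice (-0.46 to -0.19) do not overlap with the filtered-air mice (-0.076 to 0.15).

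No relation of Slc30a1 or Slc39a10 within groups passed the threshold. The r of Slc30a1 with Mt1 was 0.23 (permutation adjusted p = 0.57, rho 0.20, adjusted p = 0.70) and with Mt2 0.27 (permutation adjusted p = 0.57, rho 0.13, adjusted p = 0.72). Without the 2 farthest mice these r values were -0.077 and -0.051. Slc39a10 had an r of -0.45 with Mt1 and -0.43 with Mt2 (permutation adjusted p = 0.19 for both, rho -0.48 and -0.50, both adjusted p = 0.20), and -0.39 and -0.37 without the 2 farthest mice. Between Slc39a10 and Slc30a1 r was 0.50 (permutation adjusted p = 0.20, rho 0.53, adjusted p = 0.20), and 0.21 without ozone mice 1 and 6. Of the 6 pairs, the metallothionein pair alone passed.

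Among the genes whose 12 values were most like those of Mt1, after Mt2 (Pearson r 0.98 across the 12 mice), were Pkig (r 0.91), Cxcl14 (0.91) and Rcl1 (0.88). For Mt2 they included Mt1 (0.98), Pkig (0.95), Il10 (0.90) and Rcl1 (0.89). Pkig encodes an inhibitor of protein kinase A, Cxcl14 a chemokine and Il10 an anti-inflammatory cytokine. Within group and batch, r with Mt2 was 0.95 for Pkig and 0.83 for Il10. These are among the highest of 19633 genes, over mice that share exposure and batch, given as a description. None of Pkig, Cxcl14, Rcl1 and Il10 passed the test for ozone, with differences from 0.071 (Rcl1, adjusted p = 0.30) to 0.16 (Cxcl14, adjusted p = 0.30). Without filtered-air mouse 4, Cxcl14 passed (0.23, adjusted p = 0.040).

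Mtf1, the sensor itself, differed by 0.033 (SE 0.037, 95% interval -0.046 to 0.11, limma adjusted p = 0.74). It ranged from -0.059 to 0.067 in filtered air and from -0.037 to 0.091 after ozone, and the groups overlapped. It was among the steadiest genes, with a residual SD of 0.051, larger than in 9.80% of genes.

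Among the other exporters, neither Slc30a4 nor Slc30a5 passed. Slc30a4 ranged from -0.16 to 0.10 in filtered air (median 0.014) and from -0.033 to 0.24 after ozone (median 0.044). Its difference was 0.064 (SE 0.055, adjusted p = 0.65), and the high end was 1 animal, ozone mouse 4. Slc30a5 ranged from -0.13 to 0.13 in filtered air and from -0.099 to 0.073 after ozone. Its difference was -0.014 (SE 0.048, adjusted p = 0.93), and the groups overlapped.

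Among the importers, Slc39a14 came closest to a call. It encodes ZIP14, which carries manganese and iron as well as zinc and is known to be induced by interleukin-6 in liver. It ranged from -0.070 to 0.052 in filtered air, with a median of 0.0021, and from -0.23 to -0.039 after ozone, with a median of -0.13. All 6 ozone mice lay below the filtered-air mean, and 5 lay below every filtered-air mouse, the exception being ozone mouse 2. The difference in Slc39a14 was -0.13 (SE 0.038, 95% interval -0.21 to -0.047, limma adjusted p = 0.079), so it was not called. It passed in the fit without the batch term (adjusted p = 0.047). That fit gives the same difference but does not count the degree of freedom used by the batch correction.

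Slc39a10, an importer of the plasma membrane, ranged from -0.087 to 0.080 in filtered air (median 0.0038) and from -0.042 to 0.11 after ozone (median 0.067). Its difference was 0.051 (SE 0.039, adjusted p = 0.60). Slc39a1, also an importer of the plasma membrane, ranged from -0.099 to 0.097 in filtered air and from -0.11 to 0.11 after ozone, with a difference of 0.026 (SE 0.047, adjusted p = 0.85). Slc39a2 ranged from -0.14 to 0.083 in filtered air and from -0.17 to 0.18 after ozone, with a difference of -0.00065 (SE 0.062, 95% interval -0.13 to 0.13, adjusted p = 0.999). For all 3 the groups overlapped.

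The 2 sort batches were also compared with each other. For 6 of the 10 genes (Mt1, Mt2, Mtf1, Slc30a1, Slc39a10 and Slc39a14) the difference had the same sign in both. Mt1 differed by 0.18 in batch 1 and 0.15 in batch 2, Mt2 by 0.29 and 0.20, and Slc39a14 by -0.091 and -0.17. The signs were opposite for Slc30a4 (0.15 and -0.024), Slc30a5 (-0.045 and 0.016), Slc39a1 (0.075 and -0.023) and Slc39a2 (0.079 and -0.081). A test of the difference between batches gave an unadjusted p under 0.05 for none of the 10 genes and for 2.60% of all genes (510). With limma's adjustment 0 of 19633 genes passed, and the smallest unadjusted p among the 10 was 0.11, for Slc30a4.

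**Figure D3:**
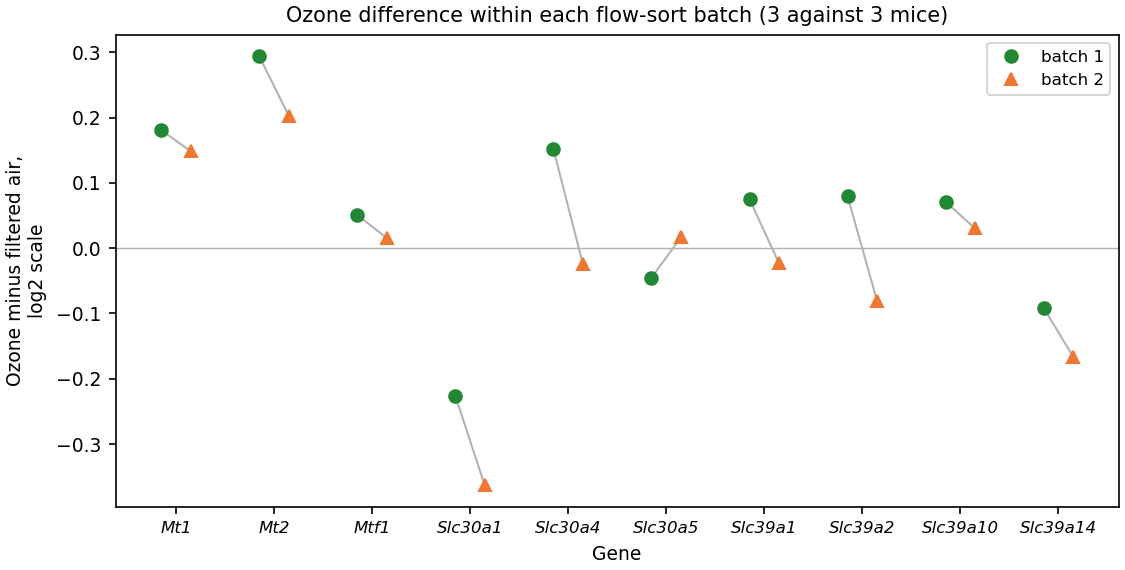
Ozone minus filtered air (vertical axis, log2 scale) for each of the 10 genes within sort batch 1 (circles) and sort batch 2 (triangles), each from 3 mice against 3. Slc30a1 lies at -0.23 and -0.36, the metallothioneins lie above 0 in both batches, and Slc30a4, Slc30a5, Slc39a1 and Slc39a2 lie on either side of 0.

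The rest of the zinc families was given for comparison. Mt3 and Mt4, known from brain and from stratified epithelia, had the same value in all mice and were not tested. Of 10 listed ZnT genes 6 were kept, and Slc30a1 was the 1 called. The 6 had a median difference of -0.00093 and ranged from -0.29 to 0.086. Of those outside the 10 genes, Slc30a9 had the smallest p (-0.14, SE 0.067, adjusted p = 0.32). Slc30a2, Slc30a3, Slc30a8 and Slc30a10 were not kept.

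Of 14 listed ZIP genes 13 were kept, all but Slc39a5, with a median difference of 0.023. The 1 called was Slc39a13, which encodes ZIP13, a transporter of intracellular vesicles and the Golgi. Slc39a13 ranged from -0.14 to 0.067 in filtered air and from 0.092 to 0.29 after ozone, without overlap. It rose by 0.19 (SE 0.044, n = 6 and 6, limma adjusted p = 0.026). Slc39a13 missed the threshold when filtered-air mouse 3 or ozone mice 3, 4, 5 or 6 were left out in turn (adjusted p up to 0.066) and after quantile normalization (adjusted p = 0.12). Within batches the difference was 0.16 and 0.22. The plot of the families shows Slc30a1 and Slc39a13 as the 2 calls among 22 zinc genes, on opposite sides of 0, beside 4.25% of all genes called.

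**Figure D4:**
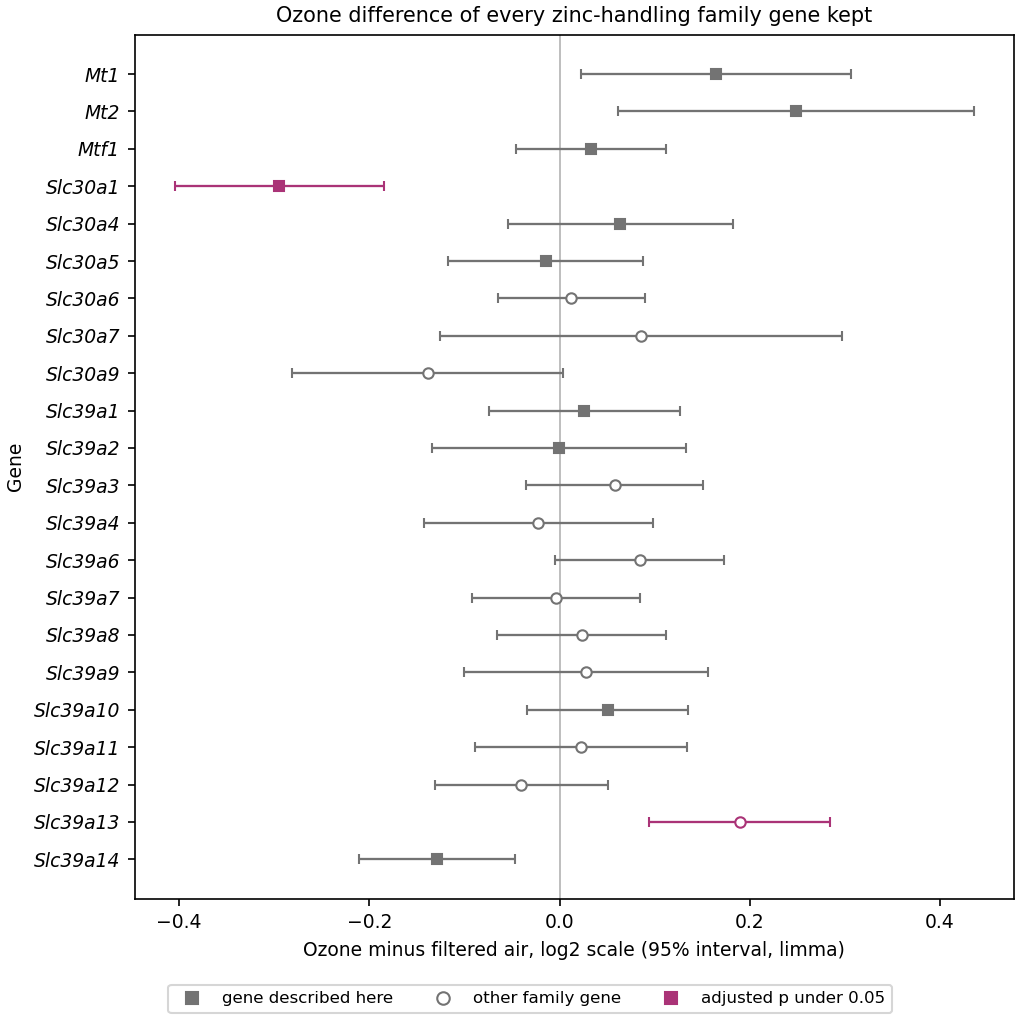
Ozone minus filtered air (horizontal axis, log2 scale, with 95% limma interval) for each kept gene of the metallothionein, ZnT and ZIP families and Mtf1, in 6 against 6 mice. Slc30a1 at -0.29 and Slc39a13 at 0.19 are the coloured calls, and Mt1, Mt2 and Slc39a14 have intervals that leave out 0 before adjustment.

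Genes of the pathways known to act on metallothioneins were taken from lists. Of 10 glucocorticoid-responsive genes, all kept, 1 was higher and 2 lower, with a median difference of -0.15 (over all genes 2.41% were called higher and 1.84% lower). Dusp1, a phosphatase of MAP kinases, rose by 0.66 (SE 0.15, adjusted p = 0.021). Klf9, a transcription factor, fell by 0.41 (SE 0.096, adjusted p = 0.026), and Errfi1, an inhibitor of the EGF receptor, fell by 0.28 (SE 0.038, adjusted p = 0.0013). Errfi1 was called without any 1 mouse. Dusp1 was lost without filtered-air mouse 1 or ozone mouse 3 (adjusted p up to 0.055), and Klf9 without filtered-air mice 1, 3 or 4 or ozone mice 4 or 5 (adjusted p up to 0.062). Both were also lost with a variance trend in limma (adjusted p = 0.096 for Dusp1 and 0.0502 for Klf9) and after quantile normalization (0.16 and 0.12). Filtered-air means are 0, so a gene's mean over all mice follows its ozone difference. The variance trend therefore runs along the difference itself and cannot judge a call.

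None of 13 NRF2 targets was called (median difference 0.033, 9 above 0, beside 4.25% of all genes called), where NRF2 is the transcription factor of the antioxidant response. The smallest p in that list was that of G6pdx, an enzyme that supplies NADPH, with a difference of 0.12 (SE 0.036, adjusted p = 0.079). G6pdx passed in the fit without the batch term (adjusted p = 0.045), where the degree of freedom of the batch correction is not counted. The list's mean per mouse ranged from -0.11 to 0.18 in filtered air, with filtered-air mouse 4 highest, and from -0.012 to 0.088 after ozone.

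Of 10 genes of the interleukin-6 and STAT3 response, 1 was higher and 1 lower, with a median of -0.019 (over all genes 2.41% were called higher and 1.84% lower). Lrg1, a secreted acute-phase glycoprotein, rose by 0.96 (SE 0.14, adjusted p = 0.0019) without overlap. Its call was lost in batch 2 alone (adjusted p = 0.32). It was also lost with a variance trend in limma (adjusted p = 0.55), which runs along the ozone difference and cannot judge a call. Stat3, the factor of that response, fell by 0.17 (SE 0.045, adjusted p = 0.048), a call that was made without filtered-air mouse 3 and lost without any other 1 mouse (adjusted p up to 0.099), and lost after quantile normalization (adjusted p = 0.22). Of 10 copper-handling genes, with a median of 0.0071, 1 was called, beside 4.25% of all genes. Commd1, which takes part in copper export, rose by 0.17 (SE 0.045, adjusted p = 0.046). That call was made without filtered-air mouse 2 or ozone mouse 3 and lost without any other 1 mouse (adjusted p up to 0.11), and lost after quantile normalization (adjusted p = 0.27).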

How the data were processed

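RNA of flow-sorted alveolar macrophages from 12 mice was sequenced as paired 50-base reads, per the labels' protocols. Per the submitters' processing notes, cutadapt, STAR 2.7.7a, Salmon 1.5.2, DESeq2 1.26.0, R 3.6.0 and limma 3.42.2 were used with the mm10 build, without a stated role or order. The authors deposited 1 table of variance-stabilised, batch-corrected values on a log2 scale, for 55291 genes. In it every gene's filtered-air mean and every difference between the 2 batch means is 0 (within 1e-06), so abundance and depth are not held, and no count model could be used.

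Of 25444 genes whose values vary, 19633 were kept. limma 3.58.1 in R 4.3.3 was fitted across them (exposure and sort batch as terms, no variance trend), with Benjamini-Hochberg adjustment over all and a threshold of 0.05. The script was tested on simulated data. Other tests were permutations in Python 3.11.15 with scipy 1.17.1: Mt1 minus Mt2 over 400 assignments, and relations over 1296 shuffles within group and batch. Alternatives changed the filter, the variance model, the covariates, the scaling or the mice.

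The 10 genes and all lists were chosen with earlier results of these data known. Named are all 10, the called genes of 7 pathway lists (or the gene of smallest p in a list without a call), and the 5 genes most correlated with Mt1 and with Mt2, of which 1 is not reported here. Outside this rule, the called markers of cell types were named after their values were seen. Promoters came from RefSeq and shared stretches from GENCODE transcripts.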

Additional observations from a re-analysis of the deposited data

Results flagged for a closer look

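In each group of 6 mice of each named gene, a mouse whose gap to its nearest neighbour exceeded Dixon's 95% critical value, as a share of the group's range, was noted. This held in 4 of 48 groups examined, where chance alone gives about 1 in 20. Slc30a4 was far above the other ozone mice in ozone mouse 4, at 0.24. Slc39a2 was far below the other filtered-air mice in filtered-air mouse 3, at -0.14. Slc39a13 was far below the others in filtered-air mouse 4, at -0.14, and its call was kept without that mouse. Lrg1 was far above the others in filtered-air mouse 4, at 0.68.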

How the results depend on the processing

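Slc30a1 was lower under every alternative tried, and was called under all but quantile normalization and either sort batch alone. The number of the 10 genes called was 2 without the batch term (2 lower), where calls over all genes also rose from 834 to 1152 (643 higher, 509 lower). It was 0 after quantile normalization (0 lower), and 0 in batch 1 alone and 0 in batch 2 alone (0 lower in each). Leaving out 1 mouse at a time gave 1 to 2 genes, 0 to 1 higher and 1 lower. Over all genes, 834 calls became 178 after quantile normalization (112 higher, 66 lower), 90 in batch 1 alone (71 higher, 19 lower) and 0 in batch 2 alone (0 higher, 0 lower, with 3 mice a group). With a variance trend, which runs along the ozone difference in these centred values, 611 genes were called (390 higher, 221 lower). Leaving out 1 mouse gave 538 to 751 calls, 326 to 456 higher and 212 to 312 lower, lowest without filtered-air mouse 1.

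The sign turned for 4 of the 10 genes, none of them called. Slc30a4 was -0.024, Slc30a5 0.016 and Slc39a1 -0.023 in batch 2 alone. Slc39a2 was 0.0032 after quantile normalization, 0.0021 with mice centred on their medians and 0.079 in batch 1 alone. Without 1 mouse Slc30a5 ran from -0.042 to 0.014 and Slc39a2 from -0.041 to 0.037. Mt1 minus Mt2 was -0.072 after quantile normalization (exact permutation p = 0.095) and -0.098 to -0.060 without 1 mouse. Where a call changed, the cause was not tested.

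Replicate numbers in the labels are shared by different animals. Same-numbered mice correlated between -0.0026 and 0.28, with 4 of 6 pairs above 0.1, and 3 of 6 filtered-air mice correlated best with their own number. With the replicate number as a block, 853 genes were called (489 higher, 364 lower), and 1 of the 10 zinc genes was called, lower, Slc30a1 (adjusted p = 0.0038). The calls of Commd1 (adjusted p = 0.074) and Stat3 (0.065) were lost under the block. They were also lost with a variance trend (0.057 and 0.071) and with the RNA integrity number as a covariate (0.064 and 0.067), and Stat3 with mice centred on their medians (0.051). In either batch alone, Commd1, Stat3, Klf9, Dusp1 and Slc39a13 were lost, and Errfi1 in batch 2 (0.22).

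The depth is unknown, and 6 mice a group leave a 95% interval of 0.061 to 0.44 for Mt2 and -0.046 to 0.11 for Mtf1.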
